A study of Mus musculus with 4 samples.

Results

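The genes described here encode the proteins of the mitochondrial ribosome whose symbols begin with Mrpl (large subunit) or Mrps (small subunit) followed by a number and at most 1 letter. They were chosen by symbol alone, and 76 of the 22565 genes in the deposited table matched, 47 large-subunit and 29 small-subunit genes. All were measured by RNA sequencing in alveolar epithelial type II (AT2) cells, which make the lung's surfactant and were sorted by flow cytometry from untreated mice aged 6 months. The libraries compared were 2 labelled knockout (KO) and 2 wild type (WT). Per the labels, the KO mice are conditional knockouts of Fbxo45, which encodes an F-box protein of a ubiquitin ligase. The sources used here do not give the Cre driver or the strain. The genotype label of KO replicate 2 names Fbxo46 in place of Fbxo45, although its title places it among the KO libraries.

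Mitochondrial ribosomes translate the small set of proteins encoded by mitochondrial DNA, all of them core subunits of the respiratory chain and of ATP synthase. Every protein of these ribosomes is encoded in the nucleus, made in the cytosol and imported. Some descend from bacterial ribosomal proteins, and others are found only in mitochondria. AT2 cells are rich in mitochondria and spend much energy on making and secreting surfactant lipids and proteins.

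Recovered fragment totals were 9507454 and 7066434 in the KO-labelled libraries, against 4167125 and 8200225 in the WT libraries, replicate 1 before replicate 2 here and in all pairs of values below. Fbxo45 had 4.41 and 7.58 FPKM (fragments scaled to transcript length and library total) in the KO-labelled libraries, against 4.604 and 5.91 FPKM in the WT libraries. Fbxo46 had 3.82 and 4.80 FPKM in the KO-labelled libraries, against 4.13 and 3.79 FPKM in the WT libraries. For both genes the groups overlapped, so neither gene separated the KO-labelled libraries from the WT libraries. The values are of whole genes and do not show whether a deleted exon is missing. The 9 AT2 markers were present in every library and summed to 82175 and 116749 FPKM in the KO-labelled libraries, against 130647 and 124335 FPKM in the WT libraries. T and NK cell markers were listed at 0 in every library, and basal cell markers summed to no more than 0.0876 FPKM. Sums for other lung cells were lower, between 807 and 1317 FPKM for club cell markers and between 594 and 937 FPKM for AT1 markers. Fibroblast and smooth muscle markers summed to between 12.5 and 34.6 FPKM. Ciliated cell markers summed to between 16.4 and 22.3 FPKM, mostly Tppp3, with Foxj1 at most 0.487 and Ccdc78 at most 0.325 FPKM. B cell markers summed to between 13.9 and 22.9 FPKM, mostly Cd79b, with Cd79a at most 3.16 and Ms4a1 at most 0.106 FPKM. Macrophage markers summed to between 7.13 and 13.6 FPKM, nearly all Cd68, with Marco at 0 and Mrc1 at most 0.0765 FPKM. Whether these cell types were present was not tested. Neutrophil markers summed to no more than 6.68 FPKM and endothelial markers to between 0.278 and 1.49 FPKM. KO replicate 1 stood apart in 6 fast skeletal muscle genes, which summed to 912.6 FPKM there, against 7.15 FPKM in KO replicate 2 and 0.159 and 8.27 FPKM in the WT libraries, and their part in the results was not tested. The lowest correlation between libraries was that of the KO-labelled pair, 0.906 across genes on the log2(FPKM + 1) scale, and the highest was that of the WT pair, 0.971.

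Nuclear respiratory factor 1 (NRF1) and ETS-family factors, among them GABP, are textbook regulators of nuclear genes for mitochondrial proteins, and their recognition letters were therefore looked up in the members' promoters. RefSeq promoter windows of build GRCm38.p6, from 250 bases before to 50 bases after each start, were matched for 67 of the 76 genes. The sequences below show windows of 130 bases that end at the base before the start, 5′ to 3′ on the gene's strand, with each match in capitals. The first 3 hold the NRF1 letters GCGCA, any base, then GCGC, read on either strand, in an abundant small-subunit gene, in the gene of the stalk protein and in a gene of the lowest level group.
Mrps21 (chr3:95871515-95871644, minus strand): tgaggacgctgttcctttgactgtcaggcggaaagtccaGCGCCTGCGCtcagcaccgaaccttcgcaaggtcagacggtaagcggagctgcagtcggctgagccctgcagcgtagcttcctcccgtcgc
Mrpl12 (chr11:120484507-120484636, plus strand): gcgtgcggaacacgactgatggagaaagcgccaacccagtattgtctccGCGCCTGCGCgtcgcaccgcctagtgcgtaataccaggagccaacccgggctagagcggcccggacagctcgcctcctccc
Mrpl45 (chr11:97315586-97315715, plus strand): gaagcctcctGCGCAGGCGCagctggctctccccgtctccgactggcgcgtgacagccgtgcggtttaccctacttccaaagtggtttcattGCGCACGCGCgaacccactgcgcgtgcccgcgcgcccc
The next 3 hold the ETS letters CCGGAAG, which were chosen to show the element in a mitochondrial copy of bacterial S18, in a low-level gene and in a gene whose FPKM was lower in both KO-labelled libraries.
Mrps18a (chr17:46110874-46111003, plus strand): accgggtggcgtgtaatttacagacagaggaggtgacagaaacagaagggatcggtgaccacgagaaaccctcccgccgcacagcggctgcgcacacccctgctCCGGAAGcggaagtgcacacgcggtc
Mrps22 (chr9:98601680-98601809, minus strand): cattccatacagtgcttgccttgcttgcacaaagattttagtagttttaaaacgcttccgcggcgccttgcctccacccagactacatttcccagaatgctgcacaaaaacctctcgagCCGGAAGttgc
Mrpl34 (chr8:71464796-71464925, plus strand): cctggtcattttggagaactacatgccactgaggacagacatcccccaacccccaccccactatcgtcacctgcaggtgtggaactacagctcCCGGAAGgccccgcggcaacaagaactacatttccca

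The NRF1 letters were found in 12 of 67 members' promoters (17.9%), against 12.4% of the 8617 tested genes that have a promoter window and 5.19% of all 27025 genes with one. The ETS letters were in 24 members (35.8%), against 21.4% of tested genes and 9.93% of all genes. The letters of YY1, a zinc-finger factor (AA, any base, then ATGGCGG), were in 7 members (10.4%), against 4.17% and 1.59%. At least 1 of these 3 was present in 37 members (55.2%), against 33.8% of tested genes and 15.05% of all genes, and in 52.5% of the cytosolic ribosomal protein genes. The TATA letters TATAAA were in 5 members (7.46%), against 8.36% of tested genes and 15.7% of all genes, and CCAAT was in 27 members (40.3%), against 42.6% and 41.1%. All motifs were read on both strands over the whole window, a gene with several windows counted if any matched, and matches of different motifs may overlap. These are matches of letters and not sites shown to be bound, and the shares were not tested.

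Many of these genes also lie head to head with another gene. In GENCODE M21 (GRCm38), 25 of the 75 members found there (33.3%) had a protein-coding gene on the other strand that starts within 1000 bases upstream or overlaps the start by at most 500 bases, against 15.2% of 10872 tested genes. Mrpl54 and Apba3 start 26 bases apart, Mrps18c and the helicase gene Helq 29 bases apart, and Mrpl49 and Fau, a gene for a ubiquitin-like protein fused to a cytosolic ribosomal protein, 59 bases apart. Mrps12 and Sars2, which encodes the mitochondrial seryl-tRNA synthetase, start 172 bases apart. Mrpl46 and Mrps11 form the only pair in which both genes belong to the mitochondrial ribosome, and their starts overlap by 412 bases. Partners had differences like those of the members in some pairs and not in others. Mrpl13 and its partner Mtbp had log2 differences (KO minus WT) of 0.61 and 0.81. Mrpl54 and Mrps18c had -1.21 and -0.96, while Apba3 and Helq had -0.37 and 0.25. Whether partners move together was not tested.

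All 76 members were expressed in AT2 cells. Their mean FPKM over the 4 libraries ran from 1.11 to 51.4 with a median of 11.2, a ratio of 46.4 between the ends, and 63 members lay between 5 and 25 FPKM. Mrpl11 was the only member under 1 FPKM in any library. Ranked among all 22565 genes by mean FPKM, the members lay between percentiles 51.9 and 95.4, and among the 11055 genes tested their median percentile was 52.5. Recovered fragments per gene and library ran from 6.1 for Mrpl53 in KO replicate 2 to 627 for Mrpl24 in KO replicate 1, so counting error alone is large for the lowest genes.

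**Figure D1:**
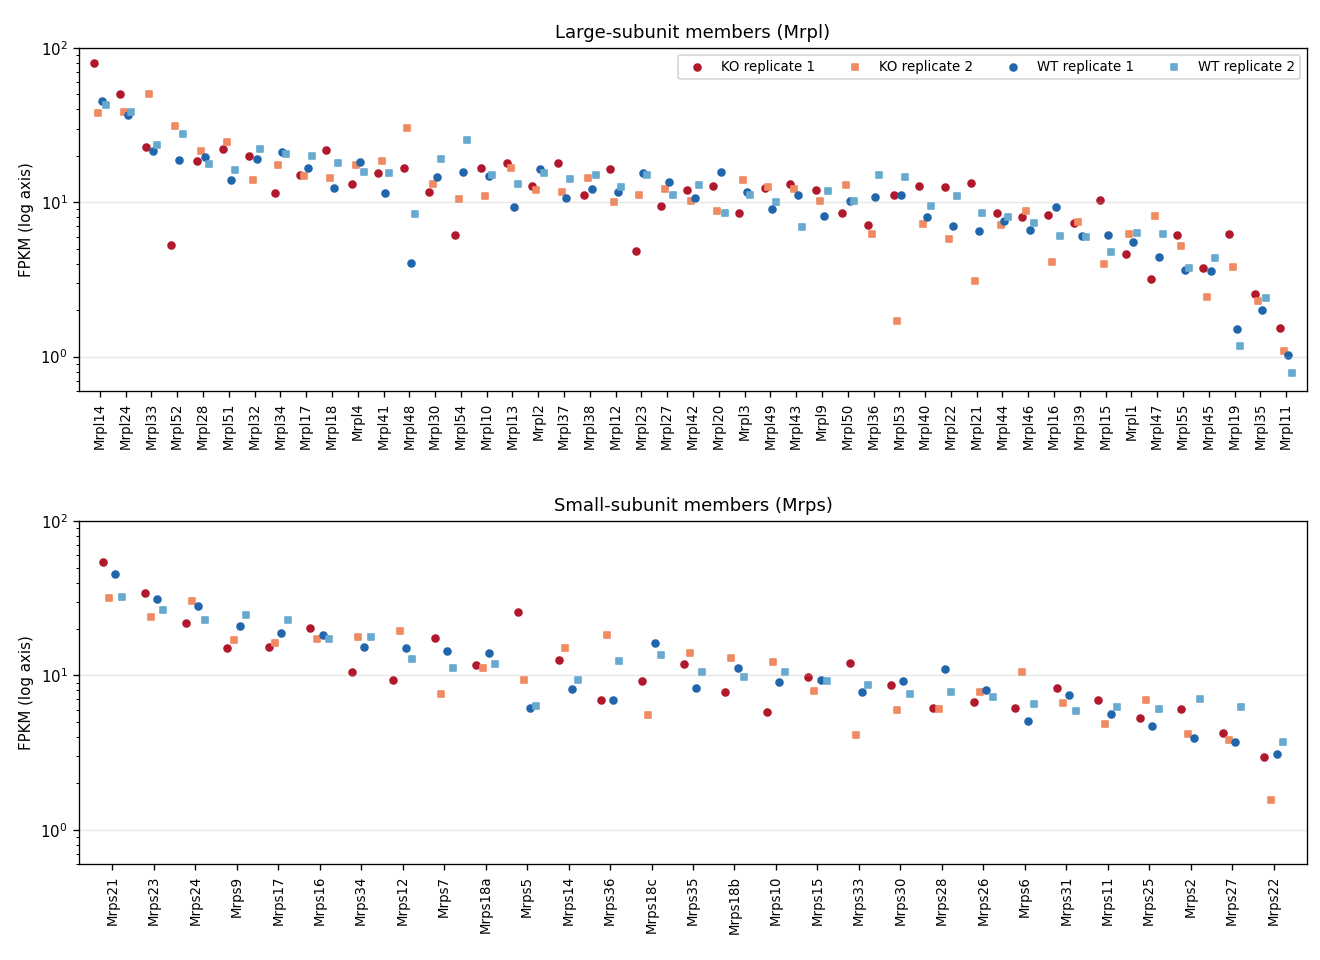
FPKM of each of the 76 genes in each library on a log axis, large-subunit genes above and small-subunit genes below, ordered by mean FPKM, with the KO-labelled libraries drawn left of the WT libraries. Levels run from Mrpl11 at a mean of 1.11 FPKM to Mrpl14 at 51.4 FPKM, and the libraries of both groups mix along the whole range.

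The most abundant member was Mrpl14, whose protein faces the small subunit at the subunit interface, with 79.8 and 37.7 FPKM in the KO-labelled libraries, against 45.6 and 42.5 FPKM in the WT libraries. KO replicate 1 alone was high, and the groups overlapped. Mrpl24, a protein near the mouth of the peptide exit tunnel, had 50.7 and 38.3 FPKM in the KO-labelled libraries, against 36.9 and 38.6 FPKM in the WT libraries. Mrps21, a small protein of the small-subunit platform, had 54.2 and 31.8 FPKM in the KO-labelled libraries, against 45.3 and 32.4 FPKM in the WT libraries. In each of these 3 genes KO replicate 1 was the highest library and KO replicate 2 lay close to or below WT. Mrpl33, a small homologue of a bacterial large-subunit protein, had 22.8 and 50.1 FPKM in the KO-labelled libraries, against 21.4 and 23.6 FPKM in the WT libraries, with KO replicate 2 the high library. Mrps23, a mitochondrion-specific protein, had 34.3 and 23.9 FPKM in the KO-labelled libraries, against 31.4 and 26.5 FPKM in the WT libraries. Mrps24, which despite its number is the homologue of bacterial S3 at the messenger RNA entry, had 21.8 and 30.5 FPKM in the KO-labelled libraries, against 28.4 and 22.9 FPKM in the WT libraries. The groups overlapped for all 6 genes, and in order of level each differed from the next by less than its spread over libraries. Of these 6, Mrps23 alone lies in a locus of the deposited table that overlaps no other gene's. The locus overlaps those of 38 other genes for Mrpl14, 25 for Mrps21, 11 for Mrps24, 10 for Mrpl24 and 2 for Mrpl33, so the assignment of their fragments is uncertain. Mrpl14 lies at chr17:45686322-45698495 on the plus strand (GRCm38).

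At the other end, Mrpl11, a protein of the stalk base, had 1.54 and 1.08 FPKM in the KO-labelled libraries, against 1.03 and 0.781 FPKM in the WT libraries. Mrpl35, a homologue of a small bacterial protein, had 2.53 and 2.31 FPKM in the KO-labelled libraries, against 2.02 and 2.39 FPKM in the WT libraries. Mrps22, a mitochondrion-specific protein in which human mutations cause a respiratory chain deficiency, had 2.95 and 1.555 FPKM in the KO-labelled libraries, against 3.08 and 3.70 FPKM in the WT libraries. Both KO-labelled values lay above both WT values for Mrpl11 and below them for Mrps22, while the groups overlapped for Mrpl35. Mrpl45, which anchors the ribosome at the inner membrane beside the exit tunnel, had 3.75 and 2.44 FPKM in the KO-labelled libraries, against 3.57 and 4.33 FPKM in the WT libraries. Mrps27, a mitochondrion-specific RNA-binding protein, had 4.23 and 3.82 FPKM in the KO-labelled libraries, against 3.69 and 6.27 FPKM in the WT libraries. For both genes the groups overlapped. Mrpl11 has 4 coding isoforms in GENCODE M21 while the other low genes named here have 1 or 2.

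The comparison of the KO-labelled with the WT libraries asks whether loss of Fbxo45 is accompanied by a change in these messages. No member passed the test. By limma-trend on log2(FPKM + 1), 0 of 76 members were called at a Benjamini-Hochberg adjusted p of 0.05, and the background was 0.0% (0 of 11055 genes tested). The lowest adjusted p of a member was 0.948. Unadjusted p was under 0.05 for 9 of the 76, against 4.84% of all genes tested. On recovered fragments, edgeR's quasi-likelihood test called 0 members and 0 of 11705 genes, with Mrpl54 the 1 member whose unadjusted p was under 0.05 (against 3.18% of genes tested). DESeq2 called 7 of 12651 genes (0.0553%) and 0 members, and 0 members had an unadjusted p under 0.05 (against 1.82% of genes). The labels do not say whether replicates are separate animals, and these p-values therefore measure only the spread between libraries, which may be technical. In bulk samples such as these, fewer cells of a type and less RNA per cell cannot be told apart. Without KO replicate 2, limma called 134 genes (0.651% of genes higher in KO and 0.561% lower), and 2 members were among them, Mrps5 with a log2 difference of 1.88 (adjusted p = 0.0337) and Mrpl23 with -1.47 (adjusted p = 0.0496). The lone KO library is then assumed to vary like the WT pair.

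In direction the members were divided. The log2 difference, KO minus WT, was above 0 for 34 members and below 0 for 42, with a median of -0.03, while the median of all genes tested was 0.035. On recovered fragments the majority turned, with 41 members above 0 and 35 below and a median of 0.058 by edgeR, so the direction depended on the scale. On the FPKM scale the difference was over 1 in size for 5 members (6.58%, against 2.50% of genes tested) and under 0.5 for 60, and its median size was 0.222, against 0.219 for genes tested. Both KO-labelled libraries lay above both WT libraries for 13 members (17.1%), and the background was 20.0% of genes tested. Both lay below for another 13 (17.1%), with a background of 15.1%. The summed FPKM of the 76 genes was 1017 and 969 in the KO-labelled libraries, against 938.2 and 985.5 in the WT libraries. The median log2 difference of the members from the WT mean was 0.069 in KO replicate 1 but -0.05 in KO replicate 2, so the KO-labelled libraries lay on opposite sides, and it was -0.07 in WT replicate 1 and 0.068 in WT replicate 2.

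The KO-labelled libraries also differed more from each other than the WT libraries did. The median size of the log2 difference between replicates over the 76 genes was 0.466 for the KO-labelled pair and 0.222 for the WT pair. Over all genes tested these values were 0.409 and 0.184, so the wider spread of the KO-labelled pair was seen across the table. KO replicate 1 held the highest FPKM of 27 members and KO replicate 2 of 21, or 35.5% and 27.6% of members, against 30.4% and 35.2% of genes tested. KO replicate 1 held the lowest of 21 members (27.6%, against 31.96% of genes tested) and KO replicate 2 of 28 (36.8%, against 26.1%). In the WT libraries, WT replicate 1 held the highest of 12 and WT replicate 2 of 16, or 15.8% and 21.1% of members, against 21.7% and 12.6% of genes tested. WT replicate 1 held the lowest of 20 (26.3%, against 21.5% of genes tested) and WT replicate 2 of 7 (9.21%, against 20.4%).

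Of the 47 large-subunit genes, 24 had a log2 difference above 0 and 23 below, with a median of 0.011, and the KO-labelled libraries lay entirely above WT for 10 (21.3%, background 20.0%) and entirely below for 7 (14.9%, background 15.1%). Of the 29 small-subunit genes, 10 were above 0 and 19 below, with a median of -0.07, and the groups were apart upwards for 3 (10.3%) and downwards for 6 (20.7%), against the same backgrounds. No gene of either subunit was called. On recovered fragments the counts were 29 and 18 for the large subunit (median log2 difference 0.08) and 12 and 17 for the small subunit (median -0.13). The subunit in a symbol is not always the place of the protein. Mrps30 and Mrps18a sit in the large subunit, and Mrps36 has been reassigned to the 2-oxoglutarate dehydrogenase complex. With Mrps30 and Mrps18a moved and Mrps36 left out, the medians were -0.02 for 49 large-subunit genes and -0.05 for 26 small-subunit genes.

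By descent, 47 members are homologues of bacterial ribosomal proteins and 27 are specific to mitochondrial ribosomes, while Mrpl55 and Mrps36 were not classed. Among the bacterial homologues 18 had a log2 difference above 0 and 29 below (median -0.06), but 24 above and 23 below on recovered fragments (median 0.031). The lean of these counts therefore depended on the scale. Both KO-labelled libraries lay above both WT libraries for 5 (10.6%, background 20.0%) and below for 11 (23.4%, background 15.1%). On recovered fragments scaled to the library total they lay above for 5 (background 16.4%) and below for 13 (background 17.1%). Among the mitochondrion-specific genes the counts were 14 and 13 (median 0.011), with both KO-labelled libraries above for 7 (25.9%) and below for 2 (7.41%). On fragments the counts were 15 and 12 (median 0.062), again with both KO-labelled libraries above for 7 and below for 2. The difference between these classes was not tested.

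Mrpl48, a mitochondrion-specific protein of the central protuberance, had the smallest p among the genes that were higher in KO. It had 16.6 and 30.5 FPKM in the KO-labelled libraries, against 4.07 and 8.45 FPKM in the WT libraries. The groups did not overlap, and the log2 difference was 1.77 ± 0.42 (limma SE; unadjusted p = 0.00575, adjusted p = 0.948). In CPM, recovered fragments scaled to the library total alone, Mrpl48 had 9.15 and 19.7 in the KO-labelled libraries, against 7.35 and 10.6 in the WT libraries, which overlap, and edgeR's log2 difference was 0.65. Mrpl48 lies at chr7:100545751-100608301 on the minus strand (GRCm38), with 7 coding isoforms.

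Mrpl19, a bacterial homologue that forms a bridge to the small subunit, had 6.25 and 3.81 FPKM in the KO-labelled libraries, against 1.51 and 1.17 FPKM in the WT libraries. Both KO-labelled values were above those of WT, with a log2 difference of 1.34 ± 0.34 (limma SE; unadjusted p = 0.00814). In CPM it had 12.9 and 8.35 in the KO-labelled libraries, against 6.48 and 6.83 in the WT libraries, again with no overlap, and edgeR's log2 difference was 0.67 (unadjusted p = 0.129). Mrpl19 lies at chr6:81957851-81965958 on the minus strand with 1 coding isoform.

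Mrps5, a protein of the small-subunit body whose bacterial counterpart bears on the accuracy of decoding, had 25.8 and 9.37 FPKM in the KO-labelled libraries, against 6.18 and 6.34 FPKM in the WT libraries. The WT values were nearly equal, and KO replicate 1 alone was far above them. The log2 difference was 1.20 ± 0.46 (limma SE; unadjusted p = 0.04), while edgeR on fragments gave 0.35. In CPM, Mrps5 had 24.2 and 16.7 in the KO-labelled libraries, against 17.3 and 14.9 in the WT libraries, which overlap. Mrps5 lies at chr2:127587222-127606829 on the plus strand.

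Mrpl51, Mrps14 and Mrpl13 complete the 6 genes with the smallest p in this direction. Mrpl51, a mitochondrion-specific large-subunit protein, had 22.03 and 24.4 FPKM in the KO-labelled libraries, against 14.0 and 16.2 FPKM in the WT libraries (log2 difference 0.59 ± 0.22, limma SE). Mrps14, a homologue of a protein of the bacterial small-subunit head, had 12.7 and 15.2 FPKM in the KO-labelled libraries, against 8.21 and 9.35 FPKM in the WT libraries (0.61 ± 0.24). Mrpl13, a bacterial homologue of the large subunit, had 18.0 and 16.8 FPKM in the KO-labelled libraries, against 9.27 and 13.1 FPKM in the WT libraries (0.61 ± 0.25). In all 3 the groups did not overlap in FPKM or in CPM. On fragments their log2 differences were smaller, 0.34 for Mrpl51, 0.25 for Mrps14 and 0.37 for Mrpl13, and the adjusted p of each was 0.948 by limma. Mrpl51 lies at chr6:125191801-125196269 and Mrps14 at chr1:160195215-160202170, both on the plus strand, and Mrpl13 at chr15:55534094-55557748 on the minus strand.

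**Figure D2:**
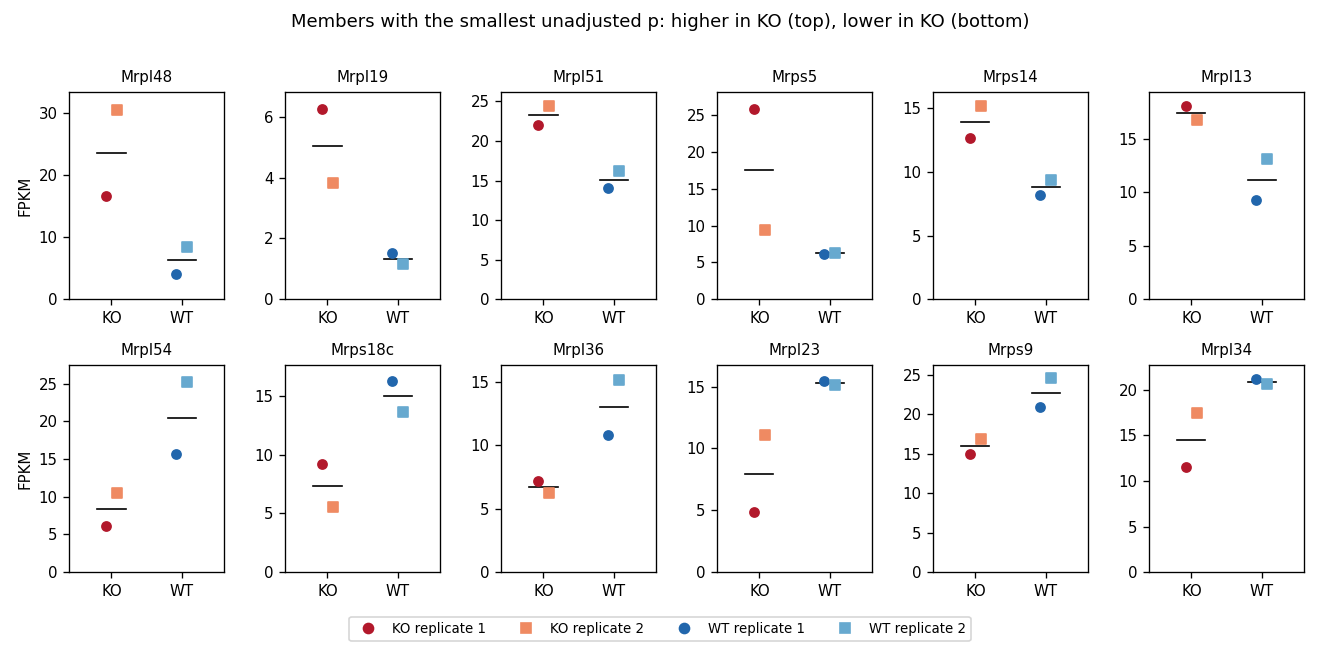
FPKM (linear axes from 0) of the 6 genes with the smallest p that were higher in KO (top) and the 6 that were lower (bottom), with the KO-labelled libraries left of the WT libraries, a point per library and a line at each group's mean. The groups do not overlap in any panel, in Mrpl48 with KO-labelled values of 16.6 and 30.5 against WT values of 4.07 and 8.45, and none of these genes was called.

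Among the genes with lower values in KO, Mrpl54, a mitochondrion-specific protein near the stalk, had the smallest p on both scales. It had 6.14 and 10.5 FPKM in the KO-labelled libraries, against 15.7 and 25.2 FPKM in the WT libraries, and 3.79 and 4.95 CPM in the KO-labelled libraries, against 7.92 and 12.8 CPM in the WT libraries. The groups did not overlap on either scale, although the WT values were themselves spread widely. The log2 difference was -1.21 ± 0.35 (limma SE; unadjusted p = 0.0141, adjusted p = 0.948) and -1.27 by edgeR (unadjusted p = 0.0262, adjusted p = 0.999). Mrpl54 lies at chr10:81264713-81266934 on the minus strand and has 1 coding isoform.

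Mrps18c is a copy of the bacterial platform protein S18, of which mammals have 3. It had 9.20 and 5.54 FPKM in the KO-labelled libraries, against 16.3 and 13.6 FPKM in the WT libraries. The groups did not overlap, with a log2 difference of -0.96 ± 0.30 (limma SE; unadjusted p = 0.0185) and -1.01 by edgeR. Mrps18b, the second copy, had 7.85 and 13.0 FPKM in the KO-labelled libraries, against 11.2 and 9.83 FPKM in the WT libraries. Mrps18a, the copy built into the large subunit, had 11.7 and 11.1 FPKM in the KO-labelled libraries, against 14.0 and 11.9 FPKM in the WT libraries. The groups overlapped for Mrps18b and lay just apart for Mrps18a, whose log2 difference was -0.17 ± 0.23 (limma SE). The difference of Mrps18b was -0.04 in FPKM and 0.077 by edgeR, so its direction depended on the scale. Mean levels of the copies were alike, 11.2 FPKM for Mrps18c, 10.5 for Mrps18b and 12.2 for Mrps18a over the 4 libraries, and they do not differ beyond the spread over libraries. The locus overlaps those of 38 other genes for Mrps18a and 2 for Mrps18b, so the assignment of their fragments is uncertain. Mrps18c lies at chr5:100798627-100804471 on the plus strand, while Mrps18b (chr17:35910379-35916389, minus strand) and Mrps18a (chr17:46110986-46128910, plus strand) share a chromosome.

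Mrpl23 belongs to the ring around the exit tunnel, where it contacts emerging chains. It had 4.86 and 11.1 FPKM in the KO-labelled libraries, against 15.4 and 15.1 FPKM in the WT libraries. The WT libraries were nearly equal and the KO-labelled libraries were both lower but far apart, with a log2 difference of -0.95 ± 0.38 (limma SE; unadjusted p = 0.0453) and -0.97 by edgeR. Of its transcript sequence 15.7% is shared with another gene in stretches of 100 bases, so its reads may be split. Mrpl36, a homologue of the smallest bacterial large-subunit protein, had 7.18 and 6.24 FPKM in the KO-labelled libraries, against 10.8 and 15.1 FPKM in the WT libraries. Its groups did not overlap, and its log2 difference was -0.84 ± 0.27 (limma SE; unadjusted p = 0.0196) and -0.89 by edgeR. The start of Mrpl36 overlaps that of Ndufs6, a complex I gene on the other strand, by 29 bases. Mrpl23 lies at chr7:142532686-142540747 and Mrpl36 at chr13:73328513-73332178, both on the plus strand.

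Mrps9 and Mrpl34 complete the 6 genes in this direction. Mrps9, a protein of the small-subunit head whose tail reaches the transfer RNA in bacteria, had 15.01 and 16.9 FPKM in the KO-labelled libraries, against 20.9 and 24.5 FPKM in the WT libraries. Mrpl34, a homologue of a small bacterial protein, had 11.5 and 17.4 FPKM in the KO-labelled libraries, against 21.2 and 20.6 FPKM in the WT libraries. The groups did not overlap for either. Their log2 differences were -0.48 ± 0.22 for Mrps9 and -0.53 ± 0.26 for Mrpl34 (limma SE), and -0.49 and -0.48 by edgeR. Mrps9 lies at chr1:42851233-42905683 and Mrpl34 at chr8:71464959-71465747, both on the plus strand. In contrast to the genes with higher values in KO, the 6 genes in this direction had nearly the same difference on both scales.

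The deposited table gives each gene both an FPKM and an estimated count, and the ratio of count to FPKM in a library follows, by the definition of FPKM, the transcript length that was used for the gene and the library's scaling. For 61 members the log2 differences from FPKM and from fragments lay within 0.25 of each other, for 5 they differed by over 0.5, and for 11 they had opposite signs. The count per FPKM of a gene varied over the 4 libraries by more than 1.5 times for 12 members (15.8%), against 21.6% of genes tested. For Mrpl48 the count per FPKM was 3.86 and 4.88 in the KO-labelled libraries, against 13.1 and 9.08 in the WT libraries. For Mrpl19 it was 14.5 and 16.5 in the KO-labelled libraries, against 31.0 and 42.4 in the WT libraries. For Mrps5 it was 6.58 and 13.4 in the KO-labelled libraries, against 20.3 and 17.01 in the WT libraries. In these 3 genes a deposited count, which is rescaled per library, was therefore worth more FPKM in the KO-labelled libraries. This moves with their higher FPKM, and their log2 differences from fragments were smaller, as given above.

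**Figure D3:**
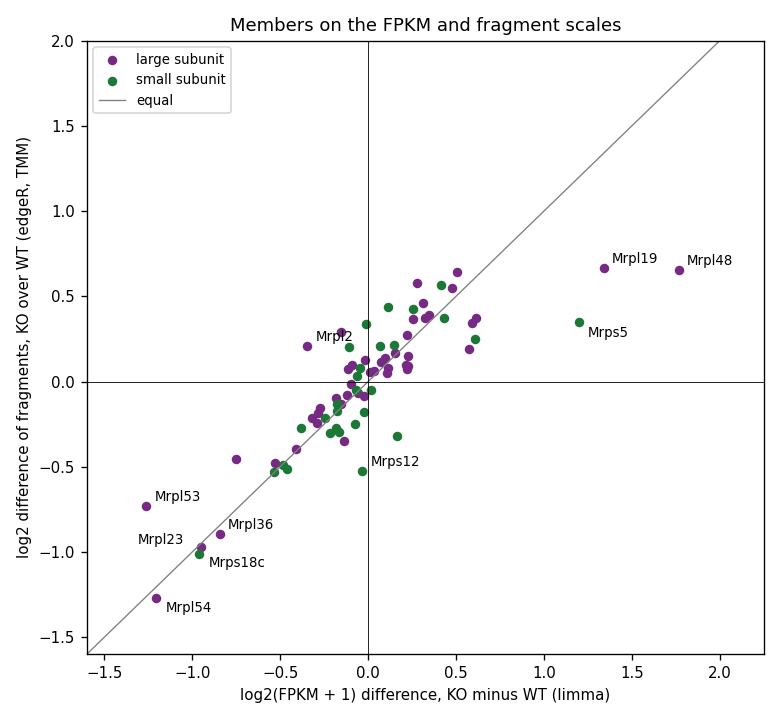
Log2 difference (KO minus WT) of each of the 76 genes from FPKM by limma on the x axis and from recovered fragments by edgeR on the y axis, with the line of equality. Most genes lie near the line, while Mrpl48, Mrpl19 and Mrps5 lie below it at 1.77, 1.34 and 1.20 on the FPKM axis.

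**Figure D4:**
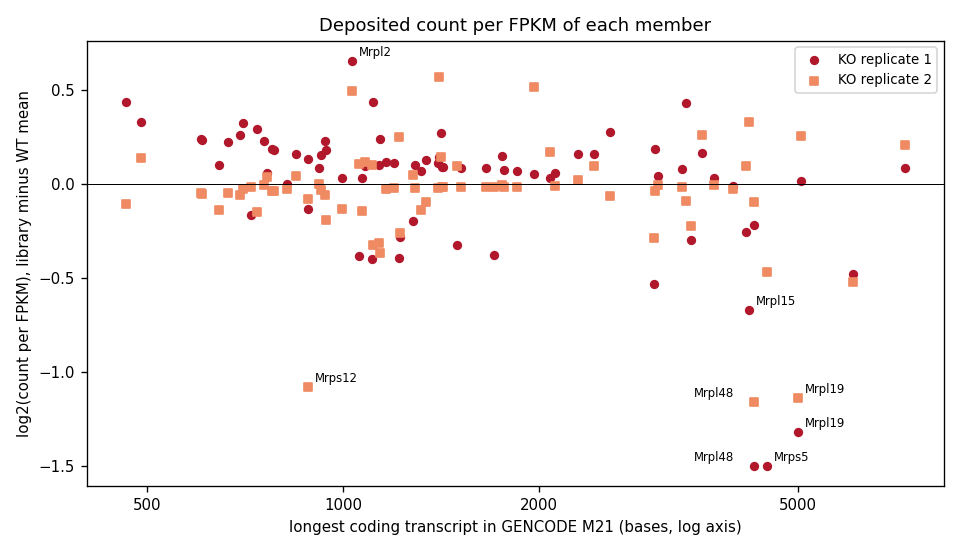
Log2 count per FPKM in each KO-labelled library minus the WT mean (y axis) against the longest coding transcript in bases (x axis, log scale), 1 point per library for each of the 75 genes in GENCODE M21. Mrpl48, Mrpl19 and Mrps5 lie far below the WT mean at 0 in KO replicate 1, and over all 76 genes the median is 0.088 in KO replicate 1 but -0.02 in KO replicate 2.

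The same split changed other members. Mrps12, a protein of the decoding centre, had 9.31 and 19.5 FPKM in the KO-labelled libraries, against 15.1 and 12.8 FPKM in the WT libraries, with overlap. In CPM it had 5.36 and 4.53 in the KO-labelled libraries, against 6.96 and 7.20 in the WT libraries, with no overlap. Its log2 difference was -0.04 from FPKM and -0.52 from fragments. Mrpl2, which lies beside the peptidyl transferase centre, had 12.8 and 11.96 FPKM in the KO-labelled libraries, against 16.4 and 15.5 FPKM in the WT libraries, with no overlap. In CPM it had 14.8 and 11.6 in the KO-labelled libraries, against 11.8 and 11.1 in the WT libraries, with overlap, and its log2 difference was -0.35 from FPKM and 0.21 from fragments. The locus of Mrpl2 overlaps those of 38 other genes, so the assignment of its fragments is uncertain. Mrpl53, a mitochondrion-specific protein, had 11.2 and 1.69 FPKM in the KO-labelled libraries, against 11.1 and 14.5 FPKM in the WT libraries. KO replicate 2 alone was low, the log2 difference was -1.26 ± 0.68 (limma SE) and -0.73 by edgeR, and 82.7% of the transcript is shared with another gene, so its level is uncertain. By CPM, both KO-labelled libraries lay above both WT libraries for 13 members, with a background of 16.4%, and below for 15, with a background of 17.1%. A total of 20 members were apart on the same side on both scales. The share of all genes tested that did so was not counted, so this number cannot be read as particular to the members.

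The remaining named genes showed no separation. Mrpl12, the stalk protein that recruits translation factors and has also been reported to bind mitochondrial RNA polymerase, had 16.3 and 10.0 FPKM in the KO-labelled libraries, against 11.7 and 12.6 FPKM in the WT libraries. Mrps30 had 8.70 and 6.01 FPKM in the KO-labelled libraries, against 9.16 and 7.56 FPKM in the WT libraries. Mrps36 had 6.89 and 18.4 FPKM in the KO-labelled libraries, against 6.93 and 12.5 FPKM in the WT libraries. In all 3 the groups overlapped and the KO-labelled libraries were farther apart than the WT libraries, with log2 differences of 0.072 for Mrpl12, -0.18 for Mrps30 and 0.26 for Mrps36. The 45 members with no description of their own in these paragraphs had mean levels between 4.70 and 20.7 FPKM. Their log2 differences ran from -0.75 to 0.50, above 0 for 19 and below 0 for 26, and their lowest unadjusted p by limma was 0.0932. Both KO-labelled libraries lay above both WT libraries for 6 of the 45 and below for 4, against 20.0% and 15.1% of genes tested. The 45 leave out the genes with the smallest p in each direction, whose groups all lay apart. Low shares therefore follow from the choice and cannot be read against this background.

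Grouped by their known place in the ribosome, a grouping made after the values had been seen, neighbours mostly had differences of both signs. Around the stalk, Mrpl10 had a log2 difference of -0.14, Mrpl11 0.28, Mrpl12 0.072, Mrpl53 -1.26 and Mrpl54 -1.21. Around the exit tunnel, the values were -0.27 for Mrpl17, -0.02 for Mrpl22, -0.95 for Mrpl23, 0.22 for Mrpl24, -0.02 for Mrpl47 and -0.29 for Mrpl45. In the central protuberance Mrpl38 had -0.09, Mrpl40 0.12, Mrpl46 0.23 and Mrpl48 1.77. Near the peptidyl transferase centre Mrpl2 had -0.35, Mrpl3 -0.06, Mrpl16 -0.32 and Mrpl27 -0.18, all below 0 from FPKM, although Mrpl2 was above 0 from fragments. None of these genes passed the test.

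On the FPKM scale, transcript length moved with the direction. Of the 23 members whose longest coding transcript is under 1000 bases, 7 had a log2 difference above 0 and 16 below, with a median of -0.12, and the KO-labelled libraries lay entirely above WT for 1 (4.35%) and entirely below for 7 (30.4%). Of the 52 longer members, 26 were above 0 and 26 below, with a median of 0.00086, and the groups were apart upwards for 12 (23.1%) and downwards for 6 (11.5%). The same was seen over all genes tested. The 590 genes with transcripts under 1000 bases had a median of -0.15, with 226 above 0 and 364 below, and their groups were apart upwards for 11.5% and downwards for 23.2%. The 10266 longer genes had a median of 0.044, and their groups were apart upwards for 20.6% and downwards for 14.4%. On recovered fragments by edgeR the contrast over all genes was smaller. Short genes there had a median of -0.057 (248 above 0 and 282 below) and longer genes 0.015 (5312 and 4905). Among the members the contrast was not smaller on fragments. Short members had a median of -0.098 (7 above 0 and 16 below) and longer members 0.087 (33 and 19). The median length was 1316 bases for members and 3132 bases for genes tested. Of the 6 genes with the smallest p that were lower in KO, Mrpl54 (604 bases), Mrpl34 (607), Mrpl23 (736), Mrps18c (820) and Mrpl36 (923) are short and Mrps9 (1418) is not. In KO replicate 1 the median log2 count per FPKM, relative to the WT mean, was 0.18 for the short members and 0.071 for the longer ones, and in KO replicate 2 it was -0.05 and -0.02. The part of length in these differences was not tested.

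Genes that act with these proteins gave no call either, and their values are on the same log2(FPKM + 1) scale. Of 7 other mitochondrial ribosomal proteins with names outside the pattern, 2 were above 0 and 5 below (median -0.18), but 5 were above and 2 below on fragments (median 0.072 by edgeR). Mrp63 had 3.22 and 3.71 FPKM in the KO-labelled libraries, against 5.65 and 4.84 FPKM in the WT libraries, and Gadd45gip1, which encodes a large-subunit protein, had 2.63 and 1.80 FPKM in the KO-labelled libraries, against 3.43 and 3.39 FPKM in the WT libraries. Ict1, a peptidyl-tRNA hydrolase built into the large subunit, had 33.4 and 42.2 FPKM in the KO-labelled libraries, against 30.3 and 29.0 FPKM in the WT libraries. The groups did not overlap for any of the 3, and none was called. Of 27 assembly factors, 17 were above 0 and 10 below, with a median of 0.24, against 0.035 for all genes tested. Their median difference from the WT mean was 0.0095 in KO replicate 1 but 0.17 in KO replicate 2. Trub2, a pseudouridine synthase of mitochondrial RNA, had 2.18 and 3.27 FPKM in the KO-labelled libraries, against 11.6 and 5.82 FPKM in the WT libraries, with a log2 difference of -1.33 ± 0.38 (limma SE; unadjusted p = 0.0138, adjusted p = 0.948). Its groups were apart, with WT replicate 1 far the highest.

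Of 15 translation factors of mitochondria, 7 were above 0 and 8 below (median -0.03). The median difference of these factors from the WT mean was 0.19 in KO replicate 1 but -0.21 in KO replicate 2. Lrpprc, which stabilises mitochondrial messenger RNAs, had 12.5 and 15.2 FPKM in the KO-labelled libraries, against 8.39 and 11.2 FPKM in the WT libraries, but its edgeR log2 difference was 0.056. Mitochondrial tRNA synthetases were above 0 for 10 and below for 8 (median 0.049). The 13 protein genes of mitochondrial DNA, the templates that these ribosomes translate, were above 0 for 2 and below for 11 (median -0.33). Their median difference from the WT mean was -0.70 in KO replicate 1 but 0.11 in KO replicate 2, with the KO-labelled libraries on opposite sides. In FPKM the groups overlapped for all 13. KO replicate 1 had 1.33e-80 FPKM for mt-Atp8, 0.344 for mt-Nd3 and 3.92 for mt-Nd4l, against 234, 822 and 1591 FPKM in KO replicate 2. In CPM the 13 genes together summed to 15621 and 16589 in the KO-labelled libraries, against 15004 and 20120 in the WT libraries. That sum does not show single genes. By edgeR the log2 difference was -1.97 for mt-Atp8, -1.12 for mt-Nd3 and -1.75 for mt-Nd4l. Of the 13 genes, 3 were above 0 by edgeR and 10 below (median -0.24).

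The cytosolic ribosome offers a comparison with another ribosome of the same cells. Of 84 tested genes for cytosolic ribosomal proteins, 43 were above 0 and 41 below, with a median of 0.031, against -0.03 for the mitochondrial members. By library, the cytosolic set lay 0.15 above the WT mean in KO replicate 1 and had -0.12 in KO replicate 2, and the mitochondrial members were on the same sides with 0.069 and -0.05. Rps2, Rps26 and Rps27 had the smallest p of the cytosolic genes. Rps2 had 69.2 and 79.8 FPKM in the KO-labelled libraries, against 125.2 and 134.7 FPKM in the WT libraries, a log2 difference of -0.80 ± 0.19 (limma SE). Many cytosolic ribosomal protein genes have processed copies in the genome, so their counts are uncertain. Neither set held a called gene, and no difference between the sets was tested.

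**Figure D5:**
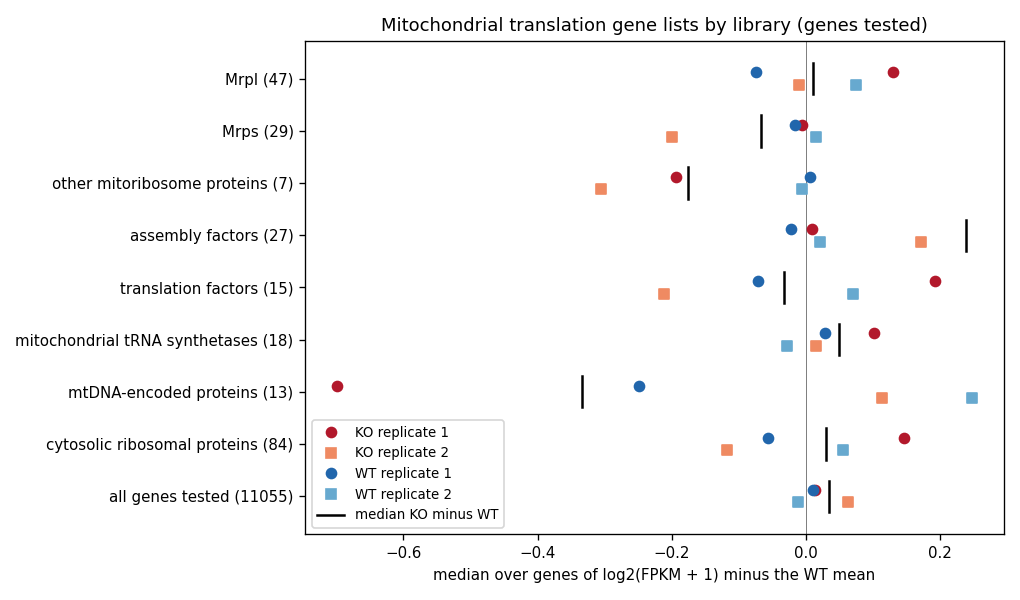
Median over the genes of each list of log2(FPKM + 1) minus the WT mean, 1 point per library, with a black line at the median log2 difference between groups (KO minus WT) and the number of genes tested in brackets. The KO-labelled replicates lie on different sides of 0 for the Mrpl genes (0.13 and -0.01) and the translation factors (0.19 and -0.21). The same holds for the genes of mitochondrial DNA (-0.70 and 0.11) and the cytosolic ribosomal proteins (0.15 and -0.12).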

How the data were processed

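Ribosomal RNA was removed from total RNA of sorted AT2 cells before stranded library preparation and sequencing, per the labels' protocols. Adapters were trimmed with cutadapt 1.9.3, per the submitters' processing notes, which also list HISAT2 2.0.4, the genome build mm10, Cufflinks and Cuffdiff 2.2.1. Settings, annotation and the treatment of multiply mapped reads are not given there. The authors deposited 22565 genes with an FPKM value and a count per library, per the file headers. The deposited counts are estimated counts rescaled per library: dividing each by 1 constant per library made 90.8% to 92.4% of positive values whole within 0.05, and these recovered fragments were rounded. Their totals give the depth. A count of 0 allows up to 0.316 CPM in the deepest library and 0.72 CPM in the shallowest (3 fragments; counting error only).

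Genes with at least 1 FPKM in at least 2 of the 4 libraries (11055, all 76 members among them) were fitted on log2(FPKM + 1) with limma-trend (limma 3.58.1 under R 4.3.3), which understates changes of low genes, with Benjamini-Hochberg adjustment over all of them. Groups came from the titles, and no gene was left out of the member list. edgeR 4.0.16 and DESeq2 1.42.0 were run on recovered fragments. Other alternatives changed the pseudocount, filter, scaling, trend, replicate block, libraries, shared loci and subunit. Coordinates, isoforms and lengths are from GENCODE M21 (GRCm38), which lacks the identifier of Mrpl33, and 30 members lie in loci of the table that overlap other genes. Named genes were the 6 highest and 6 lowest by mean FPKM, the 6 smallest p per direction, the 6 that differ most between scales, Mrps18a, Mrps18b, Mrps18c, Mrps30, Mrps36, Mrpl12 and Mrps12, with up to 3 per other list by smallest p. The members and lists were chosen with earlier results of these data known.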

Additional observations from a re-analysis of the deposited data

How the results depend on the processing

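No member was called under any alternative run on all 4 libraries. The number of genes called at an adjusted p of 0.05 was 0 by limma, 5 by edgeR with no filter, 2 by edgeR with the replicate block and 7 by DESeq2. Leaving out 1 library in turn gave 0 to 134 genes and 0 to 2 members, 134 and 2 of them without KO replicate 2, and 3 genes without WT replicate 2. The replicate block in limma called 0 genes. Same-numbered libraries showed no shared deviation across genes (correlation 0.0257), but 1 correlation cannot exclude that the numbers pair them. The cause of the 2 edgeR calls was not tested. The members' median log2 difference was 0.065 by edgeR with RLE size factors and 0.063 by DESeq2, and -0.051 to 0.069 without 1 library. The large-subunit median ran from -0.034 to 0.13 without 1 library. The small-subunit median was -0.17 by edgeR with the replicate block and ran from -0.20 to -0.0061 without 1 library.

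Of 539 alternatives for the 31 named members, 499 kept direction and call, 2 gained a call and 38 turned the direction, and for 20 members none turned it. Mrps24 was -0.022 under median-of-ratios scaling, -0.068 under quantile normalization, and on fragments -0.0475 by edgeR with TMM, -0.0479 with no filter, -0.047 with the replicate block, -0.041 with RLE and -0.044 by DESeq2. In the same order of fragment fits (TMM, no filter, block, RLE, DESeq2), Mrpl2 was 0.21, 0.21, 0.19, 0.21 and 0.21, Mrps18b was 0.077, 0.076, 0.055, 0.084 and 0.083, and Mrps23 was 0.34, 0.34, 0.33, 0.34 and 0.34. Without 1 library, the differences ran from -0.26 to 0.40 for Mrpl12, -0.22 to 0.84 for Mrpl14, -0.53 to 0.46 for Mrps12, -0.37 to 0.29 for Mrps18b, -0.26 to 0.49 for Mrps21, -0.26 to 0.24 for Mrps23, -0.22 to 0.25 for Mrps24, -0.53 to 0.10 for Mrps27, -0.41 to 0.056 for Mrps30 and -0.39 to 0.91 for Mrps36. The cause of these turns was not tested. With 2 libraries a group, and 6.1 fragments behind the lowest value, small differences were not detectable at this depth. Large ones were not called either, as with Mrpl48 at 1.77 (limma adjusted p = 0.948), so the lack of calls does not exclude them.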

Other observations

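Mrpl52, a mitochondrion-specific gene, had 5.28 and 31.0 FPKM in the KO-labelled libraries, against 18.9 and 27.7 FPKM in the WT libraries, so that the KO-labelled libraries enclosed both WT libraries. Mrpl39 had 7.36 and 7.43 FPKM in the KO-labelled libraries, against 6.06 and 5.99 FPKM in the WT libraries, so its replicates lay close together and the groups apart, with a log2 difference of 0.26 that was not called by limma. Mrps16, a homologue of a bacterial small-subunit protein, was nearly level, with 20.2 and 17.2 FPKM in the KO-labelled libraries, against 18.3 and 17.2 FPKM in the WT libraries. Mrps28 had 6.18 and 6.03 FPKM in the KO-labelled libraries, against 10.95 and 7.85 FPKM in the WT libraries, with no overlap. These genes were chosen after their values were seen.

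The members are scattered over the genome. The 75 members found in GENCODE M21 lie on 17 chromosomes, with 10 on chromosome 11, 8 on chromosome 17 and 7 on chromosome 6. Of the members, 36 have 1 coding isoform, and 21 share at least 1 stretch of 100 bases with another gene, 4 of them over 15% of the transcript (Mrpl53, Mrps34, Mrpl27 and Mrpl23).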
